A study of Mus musculus with 10 samples.

Results

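Zfp is the mouse gene symbol for zinc finger protein, followed by a number. The genes described here are the rows of the deposited left atrial gene table with such a symbol and a mean of at least 50 raw counts over the 10 libraries. The rule found 212 of the 23337 rows of the table. A further 152 of the 364 Zfp rows were under the mean of 50. The members were thus chosen by name and by level over both groups together, and not by the difference between the groups. Zfp81 (mean raw count 50.4), Zfp444 (50.6) and Zfp101 (51.0) lay just inside the limit, and Zfp167 (49.6), Zfp595 (49.6) and Zfp93 (49.3) just outside it. Each of the 212 members also passed the filter on low counts that precedes the test.

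Most Zfp proteins carry arrays of C2H2 fingers, short folds in which a pair of cysteines and a pair of histidines hold a zinc ion and which together read a DNA sequence. Many of them also carry a KRAB box near the amino terminus. The KRAB box binds TRIM28 (also called KAP1), which brings the histone methyltransferase SETDB1 and silences transposable elements and imprinted loci. KRAB zinc finger genes are known for lying in tandem arrays and for evolving quickly by duplication. A few symbols of the series name other proteins. Zfp36 and its relatives carry CCCH fingers, which bind AU-rich mRNA and recruit the CCR4-NOT deadenylase.

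RNA from the left atria of adult mice was compared between 4 control animals (genotype label wildtype, Tbx5 +/+) and 6 knockout animals (label Tbx5 null, Tbx5-/-), all on a mixed background of C57B6 and 129. In the knockout, exon 3 of Tbx5, a T-box transcription factor gene of the heart, was removed by a tamoxifen-inducible Cre under the ubiquitous R26 promoter, so that removal was not limited to cardiomyocytes. Animals received 0.167 mg of tamoxifen daily over 3 days, and atria were collected 1 week afterwards. The age is 8 to 10 weeks in one label and 6 to 8 weeks in the extraction protocol. Whether the controls carried the Cre or received tamoxifen is not given in the sources used here. Each library is labelled as a separate animal, and no litter, batch or date is given. The series asked which genes change in the adult atrium when TBX5 is removed.

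Library totals ran from 5701670 to 7697556 counts. The count of Tbx5 itself was higher in the libraries labelled knockout, at 1952 ± 336 normalized counts (SD, n = 6) against 939 ± 125 (SD, n = 4), a log2 fold change of 1.03 ± 0.14 (SE; exact two-sided permutation test p = 0.0095). A whole-gene count does not measure the loss of exon 3, so it neither checks nor contradicts the genotype label. The labelled sex of the 4 controls went against their sex-linked RNA. Control M1 and M2 had 5767 and 6201 raw Xist counts and 0 Ddx3y counts, whereas control F1 and F2 had 119 and 9 Xist counts and 1125 and 954 Ddx3y counts. In the 6 knockout libraries Xist and Ddx3y went with the label, although knockout M3 had 153 Xist counts beside 656 Ddx3y counts. Knockout M1 and M2 had 4 Xist counts each. Sex is therefore used below only as a label, and counts of members are also given for control M1 and M2 against knockout F1 to F3 and for control F1 and F2 against knockout M1 to M3.

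Zfp RNA was lower in the knockout atria. Of the 212 members, 106 fell, 5 rose and 101 did not pass the test (edgeR quasi-likelihood, Benjamini-Hochberg adjusted p of 0.05 over 13191 genes). Over all genes tested, 21.8% were called lower and 20.8% higher. The median log2 fold change (knockout minus control) was -0.35 over the members and -0.00 over all genes tested. In 84 members every knockout library lay below every control library, and 82 of these 84 were called lower. In 5 members every knockout library lay above every control, and 3 of these 5 were called higher. The same separation held in 15.0% of all tested genes downward and in 16.3% upward. Of the 106 called lower, 24 had a log2 fold change of -1 or less.

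Together the 212 members took 0.703 to 0.780% of the reads in the control libraries and 0.550 to 0.626% in the knockout libraries, so that the 2 groups did not overlap. In bulk tissue, fewer cells of a type that expresses a gene and less RNA per cell cannot be told apart. Scaled to library size only, which moves the median of all tested genes to 0.14, the members' median was -0.21, and 89 were called lower and 16 higher in place of 106 and 5. Over all genes 15.3% were then lower and 29.9% higher. Control M1 and M2 against knockout F1 to F3 gave 91 lower and 2 higher, with 16.9% of all genes lower and 15.8% higher. Control F1 and F2 against knockout M1 to M3 gave 41 lower and 0 higher, with 9.39% of all genes lower and 10.8% higher. In the authors' deposited table, 100 members are lower and 5 higher at the deposited adjusted p of 0.05, and 211 of the 212 have the sign found here.

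The upstream sequences of 4 members are shown: that of the largest fall, those of 2 large falls with a T-box core, the kind of site that TBX5 binds, and that of an abundant member called higher. The sequences are the 250 bases before the annotated start, 5′ to 3′ on the gene's strand, from RefSeq on GRCm38.p6. Capitals mark a match to 1 of 4 short motifs on either strand: GGTGTG (T-box core), CCGGAAG (ETS core), AAGATGGC (YY1 core) and GCGCATGC (NRF1). Zfp579 (chr7:4996102-4996351, minus strand), the member with the largest fall, has 1 ETS core. Zfp292 (chr4:34882949-34883198, minus strand) and Zfp62 (chr11:49203042-49203291, plus strand) each have 1 T-box core. Zfp207 (chr11:80383029-80383278, plus strand), the most abundant member called higher, has 1 YY1 core.
Zfp579: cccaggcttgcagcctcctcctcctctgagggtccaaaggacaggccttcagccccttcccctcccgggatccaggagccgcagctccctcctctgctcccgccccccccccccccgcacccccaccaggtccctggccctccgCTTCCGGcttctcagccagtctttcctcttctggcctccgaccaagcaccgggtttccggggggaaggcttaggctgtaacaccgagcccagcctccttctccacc
Zfp292: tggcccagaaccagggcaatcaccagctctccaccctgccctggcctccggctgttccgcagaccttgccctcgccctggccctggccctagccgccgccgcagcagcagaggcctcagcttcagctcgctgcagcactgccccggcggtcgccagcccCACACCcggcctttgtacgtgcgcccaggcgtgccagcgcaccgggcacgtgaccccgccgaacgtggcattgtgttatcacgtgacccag
Zfp62: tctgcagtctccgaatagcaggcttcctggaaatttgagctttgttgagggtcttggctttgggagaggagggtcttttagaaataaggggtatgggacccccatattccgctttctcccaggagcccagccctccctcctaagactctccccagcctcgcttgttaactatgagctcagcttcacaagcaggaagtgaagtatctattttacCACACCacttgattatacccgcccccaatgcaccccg
Zfp207: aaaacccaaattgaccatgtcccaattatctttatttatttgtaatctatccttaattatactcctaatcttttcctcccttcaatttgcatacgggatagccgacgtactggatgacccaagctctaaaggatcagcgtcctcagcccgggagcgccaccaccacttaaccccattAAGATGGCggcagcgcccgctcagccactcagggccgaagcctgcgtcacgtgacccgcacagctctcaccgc

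The T-box match of Zfp292 begins 91 bases before the start and that of Zfp62 begins 37 bases before it, both on the other strand. The same core begins 176 bases before the start of Zfp259, a member called higher. Of the 12 largest falls Zfp182, Zfp612 and Zfp51 had no matched sequence, nor had Zfp623 among the members called higher. The sequences of the other large falls, Zfp579, Zfp189, Zfp229, Zfp759, Zfp644, Zfp106 and Zfp788, held no T-box match. A RefSeq promoter window of 300 bases (250 before and 50 after the start) was found for 173 of the 212 members. GGTGTG was present on either strand in 15.6% of these windows and in 19.0% of all 27025 promoter windows. The set of all windows is not limited to the genes tested here, whereas each member passed a limit on level. It was present in 8 of 58 windows of KRAB members called lower (13.8%) and in 7 of 31 windows of called-lower members without a KRAB box (22.6%). Among members not called lower it was present in 5 of 25 windows with KRAB (20%) and in 7 of 59 without (11.9%). CCGGAAG was present in 22.5% of member windows and in 9.14% of all windows. AAGATGGC was present in 6.36% and 2.87%, and GCGCATGC in 5.20% and 2.80%. The median number of CpG pairs was 17 in member windows and 7 in all windows. A match of letters is a description of the window and not a binding site.

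The decrease was counted separately in members with and without a KRAB box. A KRAB box was found in the coding sequence of 96 members, none was found in 115, and Zfp862 had no coding transcript in the annotation. Without the box means here that none was found, and a divergent box can be missed. Zfp192, listed in GENCODE as Zkscan8, a symbol that names KRAB and SCAN domains, is in this class. Of the 96 KRAB members, 66 fell, 1 rose (Zfp282) and 29 did not pass, with a median log2 fold change of -0.67. Of the 115 without the box, 40 fell, 4 rose and 71 did not pass, with a median of -0.17. The shares over all tested genes were 21.8% lower and 20.8% higher. The other genes of the table with a KRAB box, under names such as Zim1, Zik1, Rbak and Etohi1, gave 26 lower and 0 higher of 39 tested, with a median of -0.78. Those other-named KRAB genes with a mean of at least 50 counts gave 14 lower of 16. C2H2 genes without KRAB and with other names (3 or more fingers, mean of at least 50) gave 32 lower (29.9%) and 10 higher (9.35%) of 107, with a median of -0.15. Among all tested genes at that mean, 23.0% were lower and 21.4% higher. With the offsets for GC content and exon length described below, these other-named C2H2 genes gave 20 lower and 18 higher (median -0.08). All genes then gave 20.3% lower and 21.8% higher. Scaled to library size only, the same set gave 22 and 15, beside 15.3% and 29.9% of all genes. The 110 tested Zfp rows under the mean of 50 gave 51 lower and 2 higher.

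**Figure D1:**
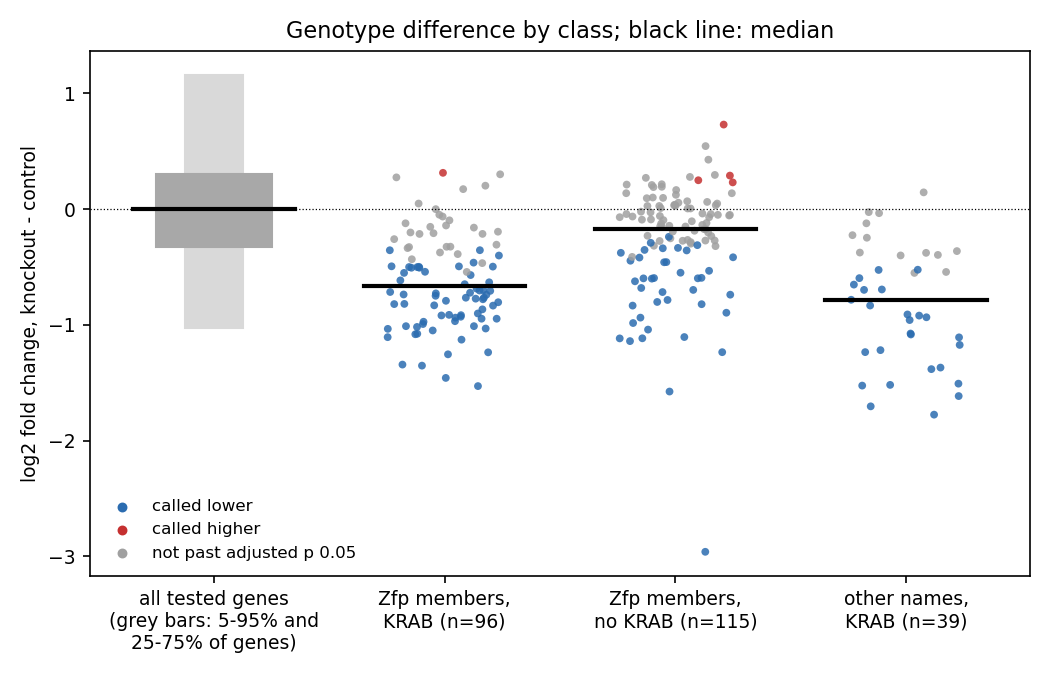
Log2 fold change (knockout minus control) of each gene by class. Each point is 1 gene, coloured by its call, black lines are medians, and the grey bars give the range of the tested genes. The KRAB members lie around a median of -0.67 and the members without the box around -0.17.

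The shift of the KRAB class was present in each knockout library. The median log2 difference of the 96 KRAB members from their control mean ran from -0.12 to 0.12 in the 4 control libraries and from -0.83 to -0.33 in the 6 knockout libraries. Knockout M1 had the lowest value and knockout M3 the highest. For the 115 members without the box the ranges were -0.06 to 0.05 and -0.29 to -0.14. The same median over all tested genes stayed between -0.02 and 0.02 in the 10 libraries, which is largely built in by the scaling of the libraries (TMM). The summed normalized counts of the KRAB members were 14837 to 17627 in controls and 10365 to 12750 in knockouts. The 2 groups did not overlap in any of these measures of the KRAB members and of the members without the box. Scaled to library size only, the median log2 fold change was -0.53 for KRAB members (59 lower, 3 higher) and -0.03 for the others (30 lower, 13 higher). In that fit the median over all tested genes was 0.14, with 15.3% lower and 29.9% higher. For control M1 and M2 against knockout F1 to F3 the medians were -0.68 for KRAB members (60 lower) and -0.17 for the others (31 lower). For control F1 and F2 against knockout M1 to M3 they were -0.57 (22 lower) and -0.16 (19 lower). The difference between the classes was not tested, since no test over the members is made here.

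**Figure D2:**
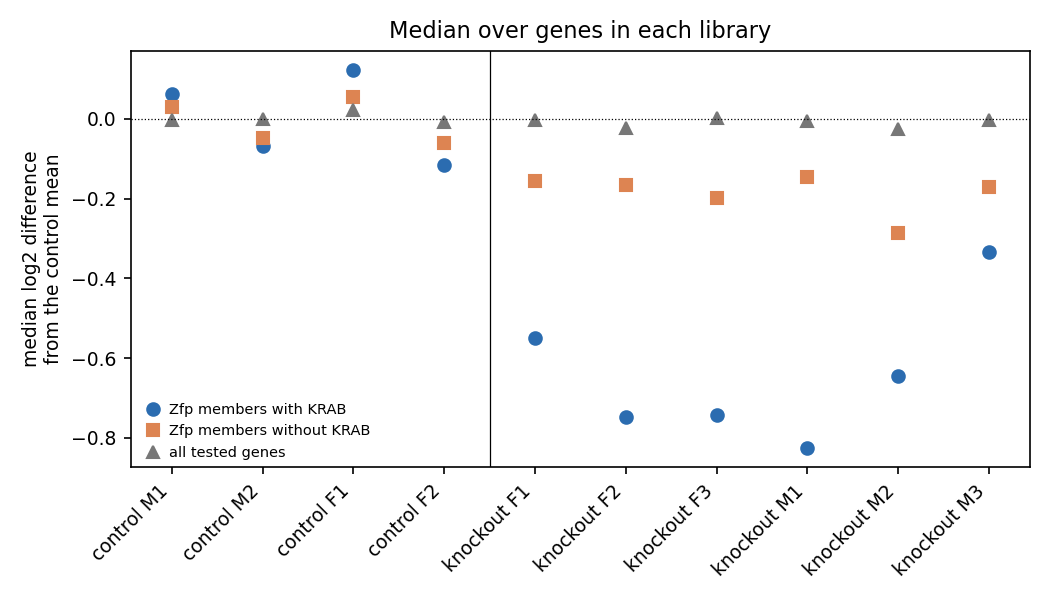
Median over genes of the log2 difference from the control mean, in each of the 10 libraries, for KRAB members, members without KRAB and all tested genes. KRAB members lie between -0.83 and -0.33 in the knockout libraries, below the members without KRAB in each of them.

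Zfp579, on chromosome 7 (4983483 to 4996158 on GRCm38, minus strand) with 8 C2H2 fingers and no KRAB box, fell most. Its normalized counts were 254, 337, 311 and 275 in control M1, M2, F1 and F2. In the 6 knockout libraries they ran from 26.6 to 69.5 with a median of 32.7. Each control was above each knockout library, and knockout M1 was the highest of the knockouts. The log2 fold change was -2.96 ± 0.20 (SE; edgeR adjusted p = 2.79e-07), a level 7.78-fold lower. Its GC content of 63.8% sets it apart from the other large falls, which range from 38.5 to 47.1%.

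Zfp292, on chromosome 4 and with 14 fingers, was at 862, 743, 923 and 735 in the controls and at 240 to 341 (median 270.2) in the knockouts. It fell by 1.58 ± 0.12 on the log2 scale (edgeR adjusted p = 5.9e-07). Zfp644, whose protein is a partner of the histone methyltransferases G9a and GLP, was at 1188, 1089, 1445 and 1211 in the controls and at 396 to 737 (median 519.9) in the knockouts, a change of -1.24 ± 0.15. Of the genes of these partners, Ehmt1 was at 369 in controls and 317 in knockouts (-0.25) and Ehmt2 at 336 and 418 (0.29), and both passed the test, in opposite directions. Zfp62, with 25 fingers, was at 379 to 485 in the controls and 146 to 271 in the knockouts, a change of -1.12 ± 0.15.

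Zfp106, an RNA-binding zinc finger protein that motor neurons and skeletal muscle need, was the most abundant member per kilobase of exon, at a mean of 602 normalized counts per kb in controls and 277 in knockouts. Its counts were 6803, 4417, 7351 and 6523 in the controls and 2259 to 3961 (median 2683) in the knockouts. It fell by 1.14 ± 0.17 (edgeR adjusted p = 0.000128). Control M2 was the lowest control and still lay above the highest knockout, M3. The exons of Zfp106 overlap those of an antisense transcript over 26.1% of their length, and the strand setting of the counting is not given in the sources used here, so reads of the pair may be mixed.

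The KRAB members with the largest falls had control means of 110 to 155 normalized counts. X-linked Zfp182 was at 142, 102, 134 and 84.7 in the controls and at 33.0 to 49.1 (median 40.0) in the knockouts, a change of -1.53 ± 0.17. Zfp612, on chromosome 8, was at 113 to 192 and 41.7 to 69.7 (-1.46 ± 0.17). Zfp189, on chromosome 4, was at 108 to 139 and 35.1 to 55.9 (-1.35 ± 0.14). On chromosome 17, Zfp229 went from a mean of 138 to 55.2 (-1.34) and its near neighbour Zfp51 from 125 to 53.2 (-1.25). Zfp759, on chromosome 13, went from 110 to 47.4 (-1.24), and Zfp788, on chromosome 7, from 155 to 71.7 (-1.13). In each of these 7 genes every knockout library lay below every control. The 12 largest falls were called lower in the 24 alternative fits of the whole table that were run.

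**Figure D3:**
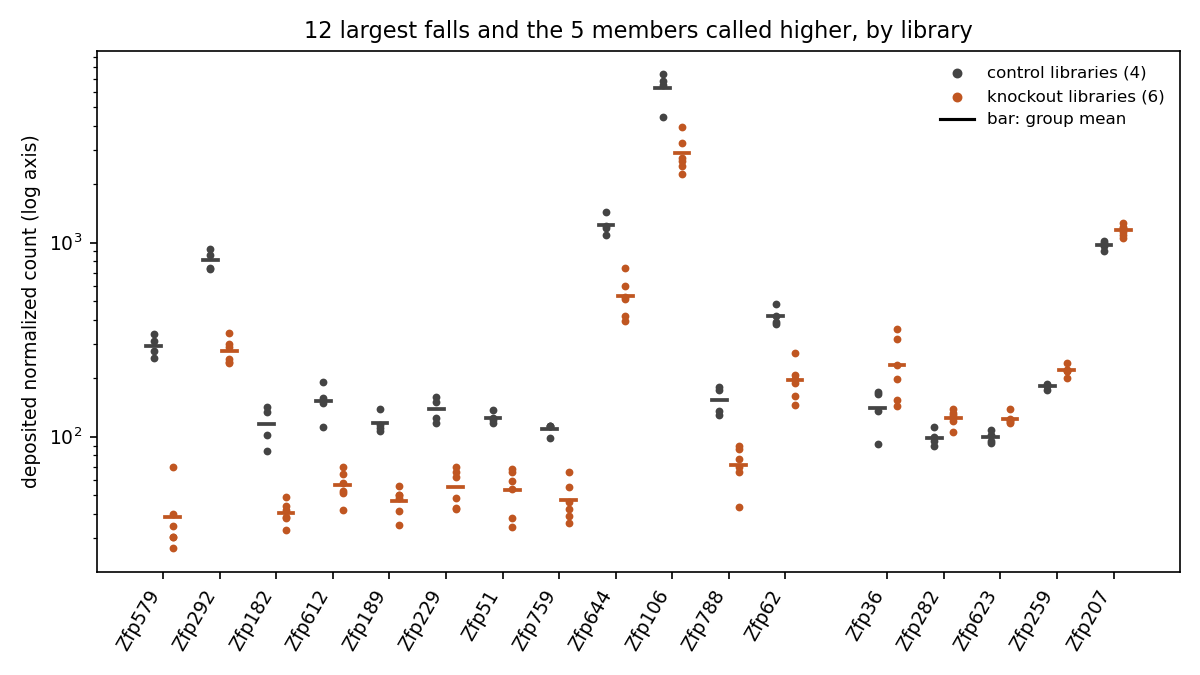
Deposited normalized counts (log axis) of the 12 members with the largest falls and of the 5 members called higher. Each point is 1 library and each bar a group mean. The 12 falls show no overlap between groups, while Zfp36 and Zfp282 overlap.

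The 5 members called higher had log2 fold changes of 0.23 to 0.73. Zfp36 (tristetraprolin), which marks AU-rich mRNA for decay, was at 170, 91.4, 167 and 135 in the controls and at 144 to 360 (median 216.8) in the knockouts. Its log2 fold change was 0.73 ± 0.26 (edgeR adjusted p = 0.037), and the groups overlapped. Zfp207, whose protein binds spindle microtubules, was at 905, 990, 1025 and 962 in the controls and at 1052 to 1263 (median 1163) in the knockouts (0.23 ± 0.08). Zfp259, also known as Zpr1, was at 174 to 187 and 200 to 240 (0.25 ± 0.09). Zfp623 was at 93.1 to 109 and 117 to 140 (0.29 ± 0.10). Zfp282 was at 89.9 to 112 and 106 to 138, with overlap (0.31 ± 0.11). Without knockout F2, 0 of these 5 passed the threshold, and each of the 5 missed it in 7 to 10 of the 24 alternative fits.

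Among the other CCCH members, Zfp36l1 had means of 232 and 242 (0.03, adjusted p = 0.921) and Zfp36l2 of 185 and 218 (0.21, adjusted p = 0.197). Neither passed the edgeR test. Over 55.9% of its exon length Zfp36l1 overlaps an antisense transcript. Of 16 tested genes of the CCR4-NOT deadenylase and its partners in mRNA decay, which CCCH proteins recruit, 7 fell and 2 rose, with a median of -0.21. Over all tested genes 21.8% fell and 20.8% rose. With the GC and length offsets 5 of the 16 were lower and 3 higher (median -0.12), and scaled to library size only, 4 and 2. The scaffold subunit Cnot1 went from 1299 to 820 (-0.69) and the exonuclease Xrn1 from 346 to 185 (-0.92).

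Zfp36 is an immediate early gene. Of 16 immediate early genes, 9 rose (against 20.8% of all tested genes) and 0 fell, with a median of 0.73. Egr1, itself a C2H2 zinc finger gene, went from 91.1 to 301 (1.71) and Atf3 from 68.3 to 545 (2.98). Their summed level was 2295 to 3513 in the controls and 3738 to 7697 in the knockouts. Their part in the Zfp36 result was not tested.

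Of the 6 members with a described part in heart or muscle, 3 fell (50.0%, against 21.8% of all tested genes and 50% of all members). These were Zfp106, Zfp260 and Zfp60. Zfp260, described as a partner of GATA4 in cardiomyocytes, was at 829, 786, 807 and 697 in the controls and at 367 to 568 (median 427.4) in the knockouts (-0.83 ± 0.12, edgeR adjusted p = 7.82e-05). Its groups did not overlap. Zfp60 went from 146 to 72.9 (-1.02). Zfp664 had means of 409 and 426 (0.03), Zfp637 of 152 and 137 (-0.17) and Zfp422 of 106 and 99.3 (-0.12), none past the test. Cardiomyocyte markers moved as well: 7 of 12 fell and 3 rose. Their summed normalized level was 1106453 to 1295605 in the controls and 490058 to 724738 in the knockouts.

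Zfp445 and Zfp809 have known targets of silencing. Zfp445, a guardian of imprinted loci together with Zfp57, was at 1029, 886, 1258 and 1158 in the controls and at 571 to 950 (median 798) in the knockouts. It fell by 0.50 ± 0.14 (edgeR adjusted p = 0.0127), although knockout M1 and M3 lay above control M2. The call was lost with offsets for GC content and length (-0.27, adjusted p = 0.126) and without control F1 (adjusted p = 0.0639). Zfp57 had a mean raw count of 46 and was not a member. Zfp809, which silences retroviruses in embryonic cells, had means of 146 and 128 (-0.21, adjusted p = 0.317).

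Of 14 DNA-binding regulators without KRAB, 5 fell (35.7%, against 21.8% of all tested genes and 34.8% of members without the box) and 0 rose. Zfp148, a GC-box binding regulator also called ZBP-89, was at 790, 703, 829 and 696 in the controls and at 412 to 530 (median 429.2) in the knockouts (-0.79 ± 0.09, edgeR adjusted p = 2.37e-05). Zfp143, an activator at many promoters with a part in chromatin looping, went from 128 to 85.9 (-0.59). Zfp292 is another of the 5. The calls of Zfp367 (-0.31, adjusted p = 0.0362) and Zfp704 (-0.38, adjusted p = 0.0106) were lost in 14 and 7 of the 24 alternative fits, both with the GC and length offsets, and with these offsets the group gave 3 lower and 1 higher. Zfp281, a regulator of stem cell states, was at 242 to 266 and 232 to 262 in the 2 groups (-0.06, adjusted p = 0.588). Zfp410, known as an activator of Chd4, had means of 225 and 264 (0.21, adjusted p = 0.138), and Chd4 had means of 1731 and 1665 (-0.08, adjusted p = 0.511).

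Of 5 members known from mesenchymal and fat lineages, 2 fell (40.0%, against 21.8% of all tested genes). Of all members without a KRAB box 34.8% fell. Zfp521 was at 606, 514, 630 and 566 in the controls and at 319 to 452 (median 391.3) in the knockouts (-0.60 ± 0.10), with no overlap. Zfp516, a regulator of brown fat genes, went from 327 to 263 (-0.34, edgeR adjusted p = 0.0305), a call lost in 13 of the 24 alternative fits, and scaled to library size only, 1 of the 5 was lower. Zfp423, a determinant of preadipocytes, had means of 77.8 and 81.9 (0.05, adjusted p = 0.841), Zfp217 of 194 and 201 (0.03) and Zfp467 of 64.2 and 49.1 (-0.41, adjusted p = 0.176). Fibroblast markers moved the other way on balance: 7 of 10 rose and 2 fell, with a summed level of 56703 to 62634 in the controls and 88104 to 119133 in the knockouts.

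Of 8 members that act on RNA, ribosomes, ubiquitin or SUMO, 2 fell (25%) and 1 rose (12.5%, Zfp207), shares near the 21.8% and 20.8% over all tested genes. With the GC and length offsets 1 was lower and 1 higher. Zfp451, a SUMO ligase, went from 159 ± 7.12 (SD, n = 4) to 107 ± 11.6 (SD, n = 6), a change of -0.60. Zfp346, a binder of double-stranded RNA, went from 198 to 139 (-0.53). Zfp598, the ubiquitin ligase that senses collided ribosomes, had means of 153 and 180 (0.21, adjusted p = 0.123). Zfp622 (132 and 138), Zfp91 (831 and 819), Zfp706 (526 and 484) and Zfp326 (101 and 82.2) did not pass either.

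The 10 most abundant members per kilobase of exon were Zfp106, Zfp207, Zfp869, Zfp445, Zfp187, Zfp260, Zfp651, Zfp706, Zfp266 and Zfp367. Zfp869, a KRAB member, went from 181 to 112 normalized counts per kb, Zfp187 from 149 to 87.0 and Zfp266 from 110 to 80.7. Of the 10, 7 fell, 1 rose, and Zfp651 and Zfp706 did not pass. Among the members of highest count, 34 of the 61 with a mean of at least 200 raw counts fell and 3 rose. Of all tested genes with a mean of at least 50 raw counts, 23.0% fell and 21.4% rose.

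The counts were also split by the number of fingers. Among KRAB members, 9 of 21 with under 10 fingers fell, with a median log2 fold change of -0.34. Of those with 10 to 14 fingers, 36 of 48 fell (median -0.73), and of those with 15 or more, 21 of 27 (median -0.77). From few to many fingers, the median GC content of these sets was 46.5%, 42.0% and 40.1%. With the GC and length offsets described below, their median log2 fold changes were -0.25, -0.60 and -0.54. Over all tested genes 21.8% fell. Without the box, 3 of 19 members with 0 to 2 fingers fell and 3 rose, against 24 of 61 with 3 to 9 fingers and 13 of 35 with 10 or more. Across members, Spearman's rho between the number of fingers and the log2 fold change was -0.38 (n = 211 genes), and -0.35 with the offsets. Among KRAB members alone rho was -0.34, and -0.25 with the offsets. The points share the same 10 libraries and many are paralogs, so rho is given as a description.

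GC content moved with the fold change as well. The median GC content was 42.0% in KRAB members and 49.7% in those without. Across members, rho between GC content and the log2 fold change was 0.66 (n = 212), against 0.22 over the 13060 tested genes with an annotation. The tested genes were then divided into 4 bands of equal size by GC content. In the lowest band, under 45.7%, 36.3% of all genes fell, against 54 of 67 KRAB members (80.6%) and 20 of 33 members without the box (60.6%). In the next band, up to 50.4%, 24.1% of all genes fell, against 9 of 17 KRAB members and 11 of 28 others. In the next, up to 55.1%, 15.4% of all genes fell, against 3 of 8 and 5 of 25. In the highest, 11.2% of all genes fell, against 0 of 4 and 4 of 29.

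With offsets that remove the dependence of each library on GC content and exon length, 93 members were called lower and 5 higher, and 91 of the 93 were among the 106. Over all genes 20.3% were then lower. The median was -0.49 in KRAB members, with 58 of 96 lower, and -0.12 in the others, with 35 of 115 lower. After the offsets rho with GC content was 0.46 over the members. Over all genes it was 0.01, a value near 0 that is largely built in, since the offsets were fitted to these same genes. Zfp579 was at -3.09 and Zfp292 at -1.21 with the offsets. The offset curves were drawn for each library alone, whatever its genotype, so a real difference that runs with GC content would be reduced by them too.

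**Figure D4:**
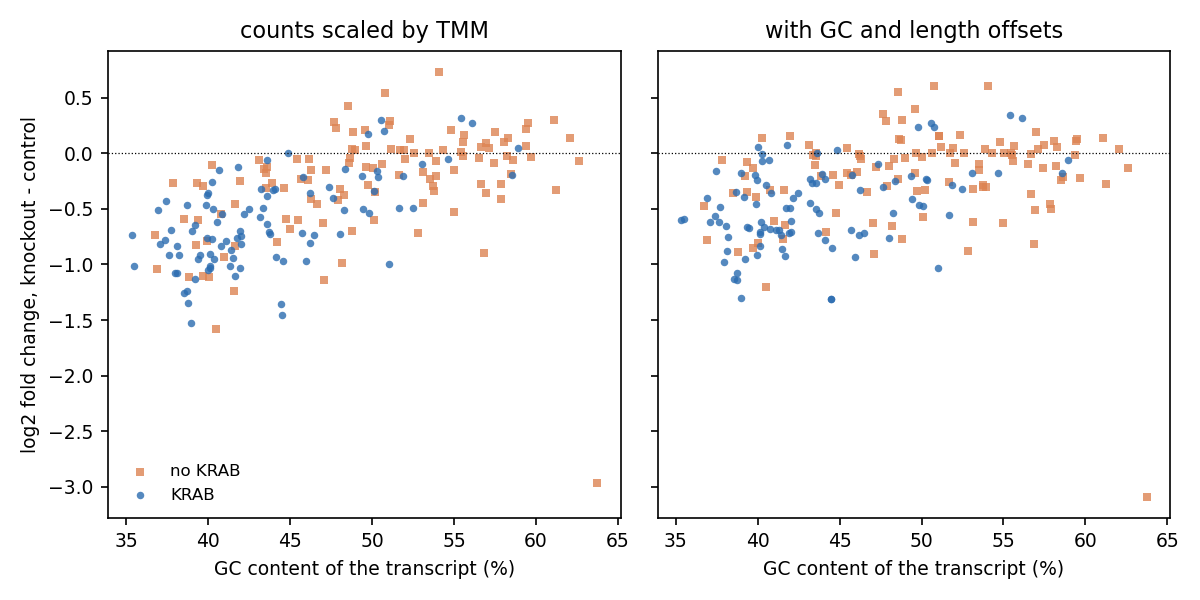
Log2 fold change (knockout minus control) of the members against GC content, for the counts scaled by TMM (left) and with offsets for GC content and exon length (right). Each point is 1 gene. Members of low GC lie lower in both panels, and Zfp579 lies apart at the lower right.

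Many members lie side by side. With neighbours under 500 kb apart counted as 1 run, 114 members fall in 30 runs and 98 lie alone. The largest run, on chromosome 17 (21008903 to 23564238 on GRCm38), holds 13 members, of which 12 have KRAB. Of the 13, 9 fell, with a median log2 fold change of -0.78. The range was -1.34 (Zfp229) to 0.27 (Zfp213, the member in which no KRAB box was found). A run on chromosome 7 (29768552 to 30169750) holds 10 members, of which 6 fell. Zfp30 and Zfp568 lie there among lower neighbours, at 0.30 (adjusted p = 0.456) and 0.20 (adjusted p = 0.206). A run on chromosome 17 (32765496 to 33394641) holds 9 members, all with KRAB, of which 7 fell (median -0.92). Of all KRAB members 68.8% fell, and of all tested genes 21.8%.

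The run on chromosome 6 (47835661 to 48623227) differed in its counts, and the GC content of the runs was not compared. It holds 8 members, 5 with KRAB, of which 1 fell (Zfp398, -0.50) and 1 rose (Zfp282), and its median was -0.05. Zfp746 had means of 101 and 124 (0.27, adjusted p = 0.184) and Zfp777 of 80.8 and 84.6 (0.05). A run on chromosome 13 (67121660 to 67687071) holds 7 KRAB members, of which 6 fell (median -0.83), and Zfp87 lies there at -0.00. In runs of 4 or more members, 39 of the 60 KRAB members fell, and outside them 27 of the 36. Beside these counts, 68.8% of all KRAB members fell and 1.04% rose, and 21.8% and 20.8% of all tested genes.

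**Figure D5:**
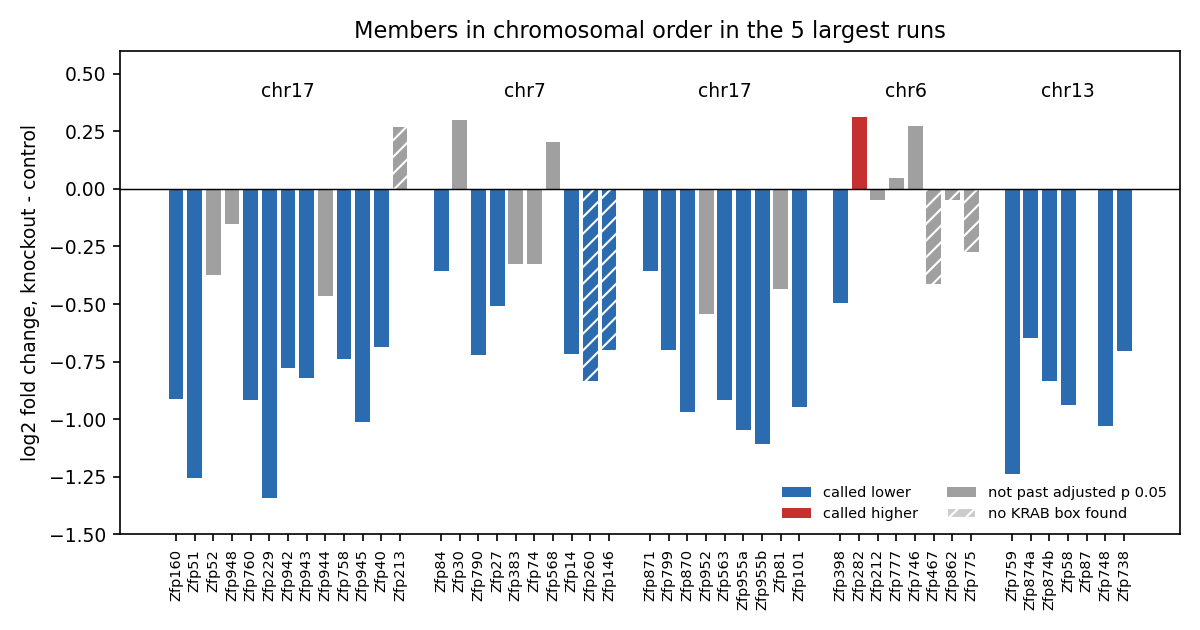
Log2 fold change (knockout minus control) of the members of the 5 largest runs, in chromosomal order. Each bar is 1 gene, coloured by its call and hatched where no KRAB box was found; Zfp87 has no visible bar because it lies at -0.00. Bars in the chromosome 6 run lie around 0, and those in the 2 chromosome 17 runs mostly below it.

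Paralogs can share reads, and how reads that fit several genes were counted is not given in the sources used here. In 52 members over 5% of the 51-base windows of their transcripts also occur, on either strand, in another gene. That count holds members that overlap an antisense neighbour as well as paralogs, and the 2 kinds were not separated. Zfp106, for example, shares 24.7% of its windows, and 26.1% of its exon length overlaps an antisense transcript. The 160 members at or under that share gave 79 lower and 5 higher, with a median of -0.35, and the 73 KRAB members among them gave 47 lower and 1 higher. Zfp955a and Zfp955b share 51.1% and 49.2% of their windows, mostly with each other, and their values are uncertain apart. In 25 members over 10% of the exon length overlaps another gene.

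The partners of KRAB proteins were counted from a list. Of 23 tested genes of TRIM28 and SETDB1 silencing, 9 fell (39.1%) and 3 rose, with a median of -0.09, while 21.8% of all tested genes fell and 20.8% rose. With the GC and length offsets 4 were lower and 3 higher (median 0.01), and scaled to library size only, 6 and 4. Trim28 was at 597 ± 53.0 (SD, n = 4) in the controls and 646 ± 67.8 (SD, n = 6) in the knockouts (0.09, edgeR adjusted p = 0.486), and Setdb1 at 233 and 217 (-0.12, adjusted p = 0.313). Among the 9 that fell, Atf7ip, a stabiliser of SETDB1, went from 542 to 334 (-0.72), the HUSH complex subunit Mphosph8 from 147 to 87.7 (-0.76) and the chromatin remodeler Atrx from 1459 to 607 (-1.29). Suv39h1, a histone methyltransferase, rose from 40.7 to 76.3 (0.87), and its relative Suv39h2 and the already named Ehmt2 are the other 2 that rose. Of 13 genes of the NuRD complex, 0 fell and 2 rose (median 0.02).

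Of 15 genes of DNA methylation, 6 rose (40%) and 3 fell (20%), with a median of 0.06, beside 20.8% and 21.8% of all tested genes. With the GC and length offsets 7 were higher and 2 lower, and scaled to library size only, 7 and 2. Uhrf1, which reads hemimethylated DNA at replication, went from 12.0 to 119 (3.22), and the DNA demethylase Tet1 from 278 to 119 (-1.25). All 18 cell cycle genes of a fixed list rose, with a median of 2.70.

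Markers of other cell types moved as well, beside 20.8% of all tested genes higher and 21.8% lower. All 10 tested macrophage markers rose (median 1.26), with a summed level of 4038 to 5599 in the controls and 8922 to 13303 in the knockouts. Smooth muscle and pericyte markers gave 6 higher of 8, endothelial markers 4 higher and 2 lower of 10, and epicardial markers 1 higher of 8. Scaled to library size only, the endothelial markers gave 5 higher and 0 lower and the epicardial markers 4 higher. Of the 8 lymphocyte markers only Ptprc was high enough to be tested, and it rose. Of 7 Schwann and neuronal markers 3 were tested, of which 2 fell and 1 rose. No listed marker was at 0 in all libraries, although Th was at 0 in the 4 controls. The 10 most abundant genes of a library took 19.3 to 20.9% of its reads in the controls and 10.9 to 14.4% in the knockouts. The part of these marker genes' cells in the Zfp result was not tested.

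Terms for the labelled sex were fitted by edgeR as well. In the interaction 27 genes (0.205%) passed over the whole table, led by Ddx3y, Uty, Kdm5d and Eif2s3y, in which the control labels are crossed. Of the members 0 passed, and 13 had an unadjusted p under 0.05. DESeq2 called 1 member, Zfp445 (difference of effects -0.82, adjusted p = 0.0239, against 0.146 in edgeR). For the sex term 2 genes (0.0152%) passed over the whole table and 0 members, with 4 members at an unadjusted p under 0.05 and 0 called by DESeq2. With the control labels crossed, these terms do not measure sex.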

How the data were processed

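Single-end reads of 51 bp were made from globin-depleted RNA, per the labels' protocols, which name both an mRNA kit and ribosome-depleted total RNA. FastQC, featureCounts, DESeq2, TopHat2 2.0.11 and the build mm10 are named in the submitters' processing notes. Neither the annotation nor the strand setting is given in the sources used here. The authors deposited raw counts per gene and library, and a normalized signal, which in each library is the raw count over 1 constant, as checked on the values. They also deposited a mean signal, a log2 fold change with its standard error, a linear fold, a test score, a p-value and an adjusted p-value for knockout against control. No column was left without a sample or a role.

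Raw counts were tested with edgeR 4.0.16 in R 4.3.3 (filterByExpr, TMM, quasi-likelihood F-test, Benjamini-Hochberg over 13191 genes), without covariates and with 1 estimate of spread from all 10 libraries. The F-test function was tested on simulated data. Of the 23337 rows, 4773 had no read. Levels are printed as deposited normalized counts. Fold changes come from the edgeR fit. Members near 50 counts carry a sizeable counting error at these totals. Positions, exon lengths and GC content came from GENCODE M21 (GRCm38), with 202 members matched by symbol and 10 by an older symbol. KRAB boxes were found with HMMER 3.4 (E of at most 1e-05) from a profile built on 118 proteins with the KRAB pattern, and fingers by the pattern C-x2-4-C-x12-H-x3-5-H, in translated GENCODE coding transcripts, since no protein table was used. Offsets for GC content and exon length were natural splines with 5 degrees of freedom per library.

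Named members are, by rule, the 12 largest falls and rises past the threshold without overlap of the groups (3 such rises), the 10 most abundant per kb, those with a listed role, those at the limit of the rule, and those in the 3 largest runs. The 2 further runs and the 5 higher calls were named after their values were seen. Of each gene list, up to 4 genes of smallest adjusted p were to be named; Trim28, Setdb1, Mphosph8, Ehmt1, Ehmt2, Chd4 and Egr1 were named besides (with Suv39h2) for their link to a member or to KRAB silencing. The members, lists and rule were chosen with earlier results of these data known. Pearson correlations of log2 CPM were 0.964 to 0.986 within groups, and no libraries agreed within sampling noise (chi-square over its degrees of freedom of at least 4.11 in each pair of replicates). P-values measure the spread between these animals. Alternatives are in the closing section. After the data were seen, leaving out control F1 with knockout M3, and the 2 comparisons by sex-linked RNA, were added.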

Additional observations from a re-analysis of the deposited data

Results flagged for a closer look

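In 7 of 122 sets of libraries (1 gene or sum in 1 group), a single library lay further from the others than Dixon's 95% limit allows. Chance marks about 1 in 20 such sets, so this number is near that share. Knockout M1 stood above the other knockouts for Zfp579 (69.5 normalized counts, against a lowest knockout of 26.6), Zfp423 (117) and Zfp664 (499.95). Knockout M3 was the highest knockout for Zfp148 (530) and the lowest for Zfp64 (48.0). Knockout F2 was the highest for Zfp623 (140). Control M1 was the lowest control for Zfp759 (98.2, against up to 114). In Zfp579, Zfp148 and Zfp759 the groups stayed apart with these libraries included.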

How the results depend on the processing

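Of 212 members, 106 were called lower and 5 higher. Leaving out each library in turn gave 94 to 107 lower and 0 to 6 higher, with 0 higher without knockout F2, 2 without knockout F1 and 3 each without control M2, control F1, control F2 or knockout M2. Scaling to library size only gave 16 higher and 89 lower. Requiring an absolute log2 fold change above 1 left 24 lower and 0 higher, and a mean of at least 200 raw counts left 34 lower and 3 higher, by construction from fewer genes. Control F1 and F2 against knockout M1 to M3 gave 41 lower and 0 higher, and control M1 and M2 against knockout F1 to F3 gave 91 and 2; each uses 5 libraries, and the cause of the difference between them was not tested. Without both control F1 and knockout M3, which held 119 and 153 Xist counts beside those of Ddx3y, there were 99 lower and 3 higher. DESeq2 called 1 member (Zfp445) for the interaction by labelled sex, against 0 in edgeR; the cause was not tested. The replicate block, on the number shared in the labels, gave 109 lower and 4 higher. The same-numbered libraries had correlations of -0.04 (M1), 0.17 (M2), -0.13 (F1) and -0.05 (F2), and the other pairs ran from -0.18 to 0.19. Such values cannot exclude a pairing of the animals, which the labels do not state. With GC and length offsets and the block together, 86 were lower. The other alternatives gave 93 to 142 lower and 5 to 7 higher. For the 58 named members, 91 calls were lost, 15 gained and 1286 kept over the alternatives, and 0 were reversed; 36 members were called lower in all 24 alternative fits. At these depths small changes of members near 50 counts are not resolved.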
